A study of Mus musculus with 5 samples.

Results

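Fibro-adipogenic progenitors (FAPs), the resident stromal cells of skeletal muscle, were compared between 7 and 5 days after a toxin injury. The authors' own cell labels chose the members, with no expression value used here: 828 cells labelled FAPs at day 5, and at day 7 1537 cells labelled FAPs plus 352 labelled FAPs (activated). Together they were 2717 of the 17923 annotated cells of the series. The series measured single cells of the tibialis anterior, a shin muscle, in droplet libraries that count mRNA molecules by unique molecular identifiers (UMIs). Live cells had been sorted by dye after enzyme digestion and lysis of red cells. All mice were C57Bl/6. The day 5 mice were female and the day 7 mice male, both 4 months old, and both had received notexin, a venom component that kills fibres. Levels at day 0 (no injury, female, 4 months, 2 sequencing runs in 1 table) and day 2 (notexin, female, 7 months) are given for reference. There was 1 library per day, so the days were compared without replicates and nothing was tested, and how many animals each library pooled is not given in the sources used here. Day, sex, animal and library cannot be told apart.

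FAPs lie between the fibres and around vessels, and in healthy muscle they keep a quiet, matrix-maintaining state. After injury they divide, secrete signals that act on muscle stem cells and macrophages, and lay down collagen-rich matrix. As fibres are rebuilt, FAPs are cleared or return toward the quiet state, and in diseased muscle they are a known source of fibrosis and fat.

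FAPs made up 38.3% of the annotated cells at day 5 (95% Clopper-Pearson interval 36.2 to 40.3) and 33.3% at day 7 (32.0 to 34.5). Among non-immune cells they were 80.4% and 64.1%. The 10 fixed FAP markers summed to 46209 cpm (the UMIs of a gene scaled to a fixed total of UMIs, as counts per 1e6) at day 5 and 57340 at day 7, and none stood at 0. FAPs held 2916545 UMIs at day 5 and 14425301 at day 7, with a median of 2785 and 7007 UMIs per cell. After each cell was thinned to 1000 UMIs the median number of genes was 603.5 and 598. The tables of the days shared 16 cell barcodes, 3 of them between FAPs. Xist, the RNA that silences 1 X chromosome in females, stood at 807 cpm in day 5 FAPs and 0.693 in day 7 FAPs, and the Y-linked Ddx3y at 3.77 and 57.1 cpm. Of 10 sex-linked genes 4 were higher and 5 lower past 2-fold. Of 12 fixed FAP identity genes 0 were higher and 1 lower, with a median ratio of 0.44, and 0.16 when only cells labelled FAPs stood for day 7.

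Of 12341 genes with at least 20 UMIs over both days, 1196 (9.69%) were higher and 1469 (11.9%) lower past 2-fold at day 7. With TMM scaling, a trimmed-mean factor between the libraries, 1537 were higher and 1139 lower. The first shares are the background for every list below. The median gene stood at -0.03 on the log2 scale (day 7 over day 5, the scale of all ratios here), and 52.9% of genes lay within 1.5-fold. Brackets after a ratio give its 95% interval from the exact split of the pair of counts, which covers counting error only.

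Much of this pattern was shared with other cells of the same libraries. Across genes with at least 20 UMIs on each day in both cell types, the FAP ratio and the endothelial ratio had a Pearson r of 0.851 (1320 genes). For cells labelled anti-inflammatory macrophages it was 0.831 (5271 genes) and for muscle stem cells and progenitors 0.889 (745 genes). Genes are not independent replicates, and these cell types share the library, its animals and its sequencing. Of 844 well-expressed genes that at least 2 of these other cell types also expressed at 0.5 times the FAP level or more, 145 passed 2-fold in FAPs. Measured against the median ratio of the other cell types, 10 of the 844 did. These are not what remains of the 145: Hbb-bs, Anxa3 and Tax1bp3 passed both ways. Others, such as Kctd12 and Anxa1, had FAP ratios of only -0.11 and -0.33.

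**Figure D1:**
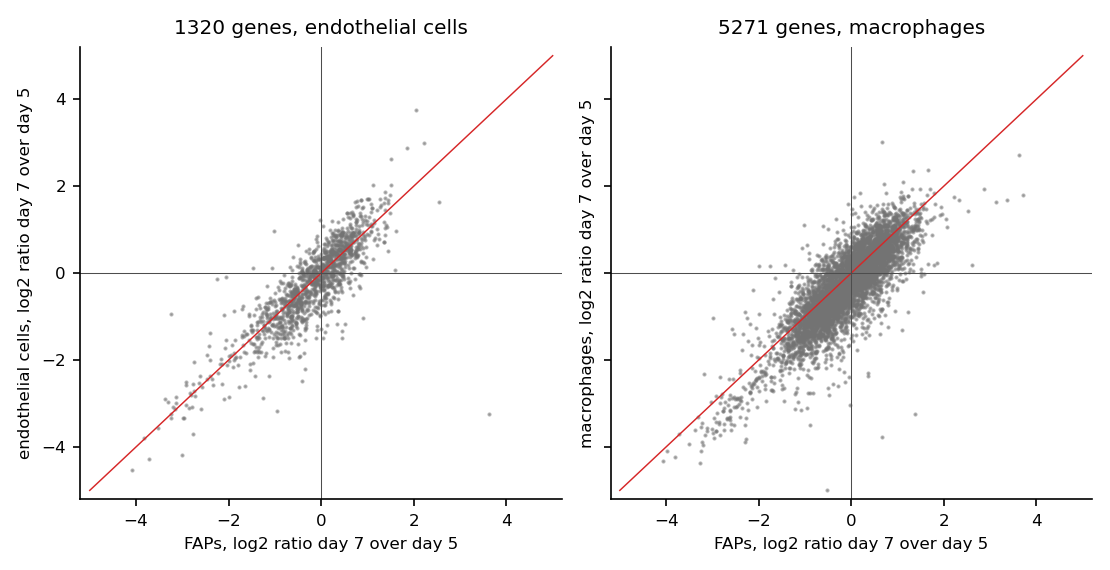
Each point is a gene, with its log2 ratio of day 7 over day 5 in FAPs on the x axis and in endothelial cells (left) or macrophages (right) on the y axis, for genes with at least 20 UMIs on each day in both cell types (values past 5 drawn at 5). The points follow the red line of equal ratios, with r of 0.851 and 0.831.

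The ratio also varied with transcript length. Among 11995 genes with a length, the Spearman correlation of ratio and longest annotated transcript was -0.37. With genes in 10 classes of equal size by length, the class of 1324 to 1887 nucleotides had a median ratio of 0.54, and the class of 6817 nucleotides or more had -0.52. Endothelial cells gave 0.65 and -0.69 in these classes, and macrophages 0.47 and -0.74. Pseudogenes stood apart in the same way: 63 of 72 measured were lower past 2-fold, with a median of -2.41 in FAPs, -2.12 in endothelial cells and -2.84 in macrophages. Of the 20 lowest genes by the naming rule, 16 were pseudogenes, predicted genes or ribosomal protein genes, whose reads can be split among near-identical copies. What sets these shared differences was not tested, and most lists below are therefore given with their median in other cells or with the ratio minus the median of genes of like length (the length-centred ratio). Length-centred, 7.86% of all genes were higher and 9.34% lower past 2-fold.

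**Figure D2:**
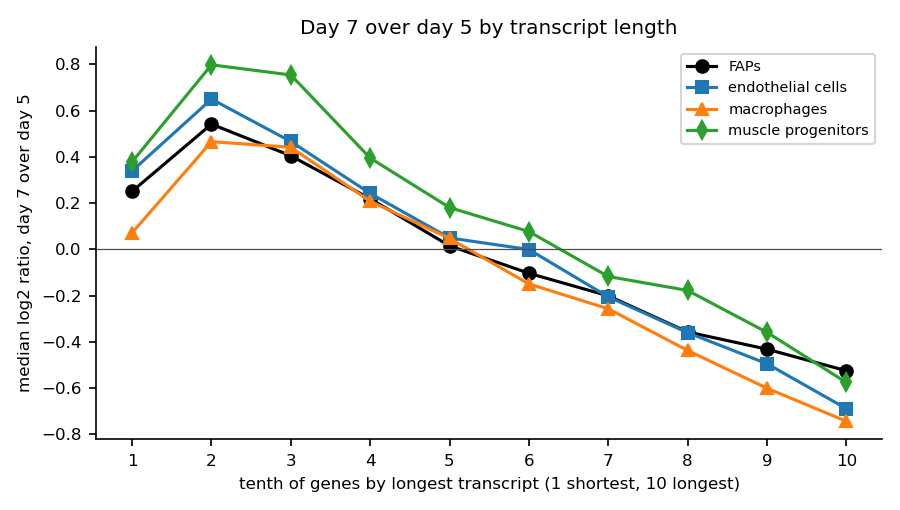
The x axis gives 10 classes of equal size of the measured genes by longest transcript and the y axis the median log2 ratio of day 7 over day 5 in 4 cell types. In FAPs the median goes from 0.54 in class 2 to -0.52 in class 10, and the other cell types follow the same course.

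Among genes that FAPs express at least 0.5 times as highly as any other large cell type, the 20 with the largest ratios at day 7 were of mixed kinds. They included the chemokine Cxcl13, the growth factor Ptn, the matrix genes Mfap2, Mfap4, Fbln7 and Cthrc1, and genes of general cell functions such as Ssr2, Ubb and Cops6. Cxcl13, which attracts B cells, stood at 20.4 cpm at day 0, 12.2 at day 2, 3.09 at day 5 and 292 at day 7. Its ratio was 6.57 (5.64 to 7.70). Nearly all of it lay under 1 label: 1966 cpm in cells labelled FAPs (activated) and 5.12 in the others of day 7, where the ratio to day 5 was 0.73. Of 352 activated-labelled cells 106 had a UMI of Cxcl13, and 8 cells held 50 of every 100 of the 4153 UMIs under that label. At day 5, 3 of 828 FAPs held its 9 UMIs.

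Ptn (pleiotrophin) and Mdk (midkine), a pair of related heparin-binding growth factors, were higher at day 7, though Mdk was not among the 20. Ptn stood at 39.5, 65.7, 130 and 562 cpm at days 0, 2, 5 and 7, with a ratio of 2.11 (1.96 to 2.26). Mdk stood at 60.9, 47.2, 146 and 386 cpm, with a ratio of 1.41 (1.26 to 1.55). Both were near absent under the activated label, at 8.05 and 29.8 cpm against 657 and 447 in the other day 7 FAPs. After thinning, 7.00% of day 5 FAPs (5.36 to 8.96) and 24.9% of day 7 FAPs had a UMI of Ptn, and 0.595% of day 7 macrophages did. The length-centred ratios were 1.83 and 0.92.

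The microfibril and matrix-associated genes Mfap2, Mfap4, Fbln7 and Cthrc1 were higher too. Mfap2, a glycoprotein of the microfibrils that scaffold elastin, went from 270 cpm at day 5 to 992 at day 7, a ratio of 1.88 (1.78 to 1.98). For Mfap4, which binds elastic fibres, the levels were 283 and 883 cpm and the ratio 1.64 (1.54 to 1.75). Fbln7, a fibulin, stood at 146 and 462 cpm, with a ratio of 1.67 (1.52 to 1.81). Cthrc1, a secreted protein of matrix-producing fibroblasts, stood at 7.04 cpm at day 0, 391 at day 2, 347 at day 5 and 966 at day 7. Its ratio was 1.48 (1.39 to 1.57), and 15.9% (13.5 to 18.6) of thinned day 5 FAPs and 43.5% (41.2 to 45.7) of day 7 FAPs had a UMI. In macrophages, which should lack Cthrc1, the share was 0.928% and 0.807%. All of these genes were lower under the activated label than in the other day 7 FAPs, with Mfap4 at 91.8 against 1020 cpm.

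Other genes of the leading 20 were the receptor partner Ramp1 (39.4 to 136 cpm), which joins the calcitonin receptor-like receptor to bind the nerve peptide CGRP, the secreted Olfml3 (99.8 to 315 cpm) and the membrane protein gene Tmem119 (51.1 to 160 cpm). Cdkn1c, an imprinted inhibitor of cyclin-dependent kinases, went from 442 to 1249 cpm, a ratio of 1.499 (1.42 to 1.58). The beta-globin gene Hbb-bs, with a ratio of 3.63, is carried by red cells: at day 7, 2 cells held 50 of every 100 of its 2013 UMIs in cells labelled FAPs. All 20 leading genes had a macrophage ratio above 0, some of them on few UMIs, and 12 of the 14 with an endothelial ratio were above 0 there. Several macrophage levels were traces beside those of FAPs, such as Ptn (2.22 and 6.19 cpm at days 5 and 7) and Mfap4 (7.38 and 10.9). Others, such as Ubb (1657 and 3016 cpm), stood near the FAP level. Whether FAP RNA sets the trace values was not tested.

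**Figure D3:**
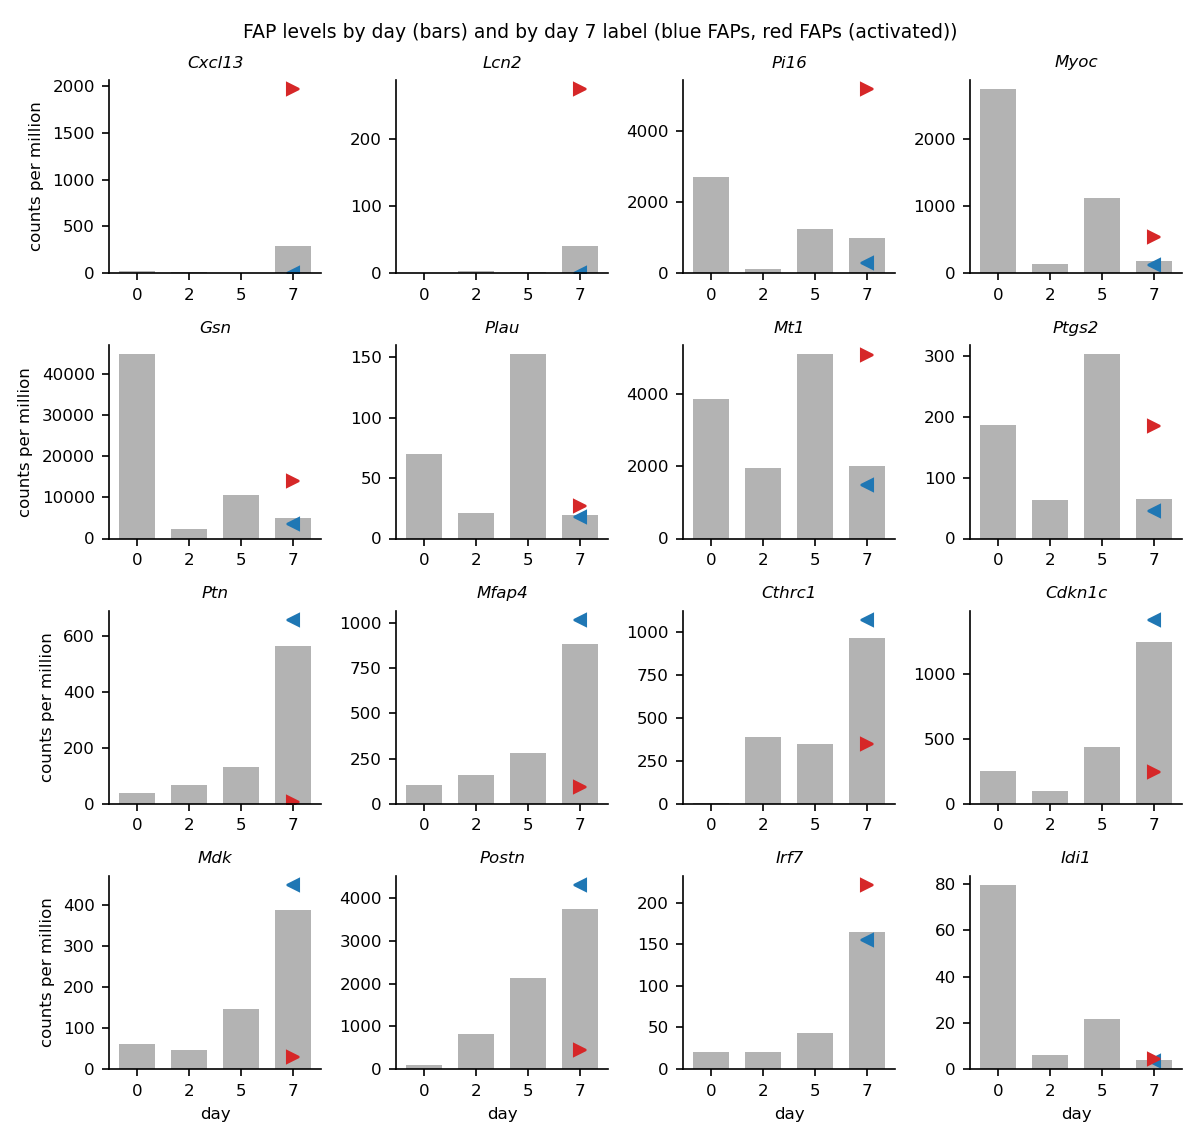
Grey bars give the level in FAPs (cpm, linear axis from 0) at days 0, 2, 5 and 7 for 16 genes, with no error since each day is 1 library. Triangles give the levels of the 1537 cells labelled FAPs (blue) and the 352 labelled FAPs (activated) (red) at day 7. Cxcl13 reaches 1966 under the activated label against 3.09 at day 5, and Ptn is 657 in the other day 7 FAPs against 130 at day 5.

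Genes lower at day 7 that are no pseudogenes or ribosomal genes were led by secreted and inducible genes of FAPs. Myoc (myocilin, a secreted glycoprotein) stood at 2733 cpm at day 0, 140 at day 2, 1111 at day 5 and 183 at day 7, a ratio of -2.60 (-2.67 to -2.53). A UMI of Myoc was found in 46.9% of thinned day 5 FAPs (43.4 to 50.3) and 12.2% of day 7 FAPs (10.8 to 13.8), against 1.39% and 0.212% of macrophages. Plau (urokinase, the protease that activates plasminogen) stood at 152 and 19.1 cpm, a ratio of -3.00 (-3.22 to -2.78). Hk2, the hexokinase that starts glycolysis in muscle and fat, stood at 233 and 28.5 cpm, a ratio of -3.03 (-3.21 to -2.85). Plac9b, at -3.68, has a near-identical copy and its counts are uncertain. Length-centring left Myoc at -3.03, Plau at -3.36 and Hk2 at -2.61. In macrophages the ratios were -3.62, -1.04 and -2.96.

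Further genes lower at day 7 became visible among the 20 lowest once ratios were length-centred. Gpc3, a cell-surface proteoglycan, went from 221 to 50.5 cpm (-2.13, -2.28 to -1.97). Ptgs2, the inducible cyclooxygenase that makes prostaglandins, went from 302 to 65.0 cpm (-2.22, -2.35 to -2.08). Ifi205, an interferon-inducible gene, went from 258 to 70.7 cpm (-1.87, -2.004 to -1.729), and the metal-binding Mt1 from 5109 to 2003 cpm (-1.35, -1.38 to -1.32). At day 2 Gpc3 stood at 22.4 cpm, Ptgs2 at 63.9, Ifi205 at 48.9 and Mt1 at 1961, so for each of them day 5 lay above both days 2 and 7. Under the activated label the ratio to day 5 was -0.16 for Ifi205, -0.01 for Mt1, -0.71 for Ptgs2 and -2.44 for Gpc3, so for Ifi205, Mt1 and Ptgs2 the difference lay mostly in the cells labelled FAPs. Macrophages had ratios of -2.66 for Ifi205, -2.53 for Ptgs2 and -1.78 for Mt1.

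**Figure D4:**
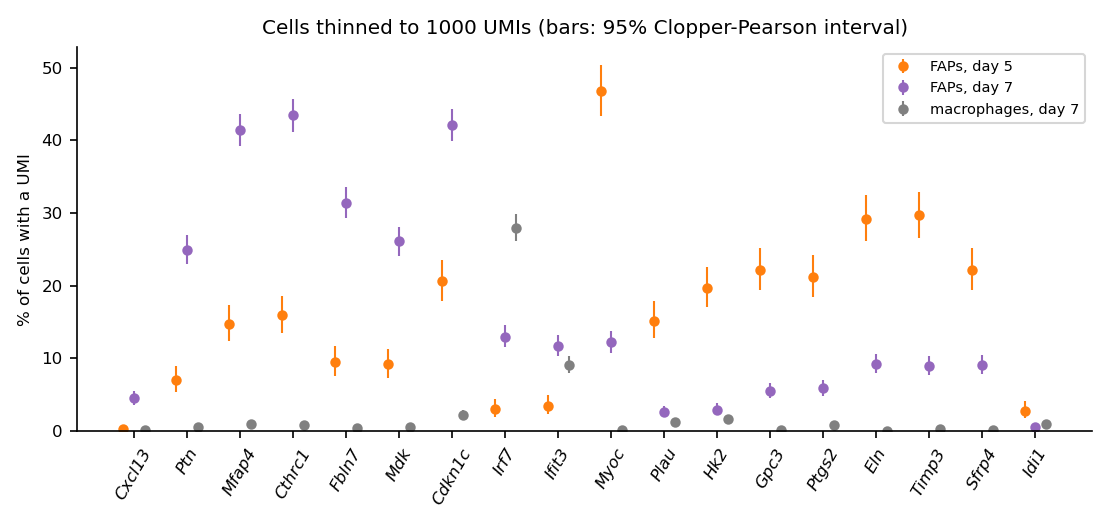
The y axis gives the percentage of cells with at least 1 UMI of a gene after each cell was thinned to 1000 UMIs, with 95% Clopper-Pearson intervals, for FAPs at day 5 (orange) and day 7 (purple) and for macrophages at day 7 (grey) as a background. The genes drawn were mostly named in the text for their ratios in these same cells, so gaps between days follow from that choice. Cxcl13 stands at 0.241% and 4.55% at days 5 and 7 and Idi1 at 2.78% and 0.529%. The intervals cover only the sampling of cells within 1 library per day. Irf7 is more frequent in macrophages (28.0%) than in FAPs.

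Fibrillar collagens were high on both days, and the list as a whole stood near the middle of all genes. Of 21 measured collagens 2 were higher and 1 lower past 2-fold, shares of 9.52% and 4.76% beside the background, with a median ratio of 0.04. Col3a1 stood at 13365 and 20538 cpm (0.62), Col1a1 at 8706 and 14062 (0.69) and Col1a2 at 7842 and 10530 (0.43), so the main fibril collagens were higher by under 2-fold. Col1a1 passed 2-fold in thinned cells (1.01) and with each cell weighing the same (1.02). Col6a1, a beaded-filament collagen, went from 735 to 1584 cpm (1.11, 1.04 to 1.17). Col7a1 had 0 UMIs at day 5 and 40 at day 7, which is 2.70-fold higher if day 5 is set to the floor of 3 counts. Collagens are long transcripts: length-centred, their median was 0.51, with 6 higher and 0 lower. By label the median was 0.18 for the cells labelled FAPs and -1.62 for those labelled activated.

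Enzymes and chaperones that fold and crosslink collagen were on balance higher. Of 26 measured, 5 were higher past 2-fold (19.2%) and 1 lower, with a median of 0.37 against 0.27 in endothelial cells and -0.05 in macrophages. Pcolce, which speeds the trimming of procollagen, went from 954 to 2387 cpm (1.32) and the proline isomerase Ppib from 532 to 1390 (1.38). Serpinh1, the collagen chaperone, stood at 1348 and 2348 cpm (0.80). The lysyl hydroxylase Plod2 was the member lower past 2-fold, at 193 and 90.7 cpm (-1.09).

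Matricellular and elastic-fibre genes held members past 2-fold in both directions. Of 33 measured, 7 were higher (21.2%) and 6 lower (18.2%), with a median of -0.23 (endothelial -0.76, macrophage -0.67). Length-centred, 3 of the 28 members with a transcript length were higher and 2 lower, with a median of 0.00080. Members without a length drop out, so these counts do not cover the same genes as the 33. Besides Mfap2, Mfap4 and Cthrc1, Sparc, a collagen-binding protein, went from 7003 to 15710 cpm (1.17, 1.14 to 1.19). Postn (periostin) was higher by under 2-fold, at 2134 and 3742 cpm (0.81), after 107 at day 0 and 822 at day 2. The ratio of Postn was past 2-fold in cells labelled FAPs (1.01), in thinned cells (1.15) and with each cell weighing the same (1.13). Lower were Eln, which encodes elastin itself (487 to 144 cpm, -1.75, -1.85 to -1.66), and the CCN-family genes Nov (262 to 49.7 cpm, -2.40) and Ctgf (103 to 26.1 cpm, -1.99). Thbs1, a thrombospondin, and the latent TGF-beta binding genes Ltbp1 and Ltbp4 were lower too (-1.39, -1.07 and -1.41). Wisp1, of the CCN family like Nov and Ctgf, was higher (23.3 to 63.8 cpm, 1.45).

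Among small leucine-rich proteoglycans, which coat collagen fibrils, 1 of 11 was higher and 4 lower (36.4%), with a median of -0.54. It was -0.079 in thinned cells and -0.40 length-centred, and 0.08 in endothelial cells (5 genes) and -0.21 in macrophages (7 genes). Bgn (biglycan) went from 2152 to 4861 cpm (1.18), while Dcn (decorin, 8335 and 11309 cpm, 0.44) and Lum (lumican, 1958 and 2846 cpm, 0.54) stayed within 2-fold. Ogn (osteoglycin) was lower, at 883 and 378 cpm (-1.22). The other lower members, Chad, Kera and Fmod, are tendon and cartilage genes. Of the 17 measured members of the tendon list 0 were higher and 7 lower (41.2%), with a median of -0.79 (-0.80 length-centred). Chad stood at 21.9 and 0.277 cpm (-6.31) and Cilp2 at 30.9 and 0.347 cpm (-6.48). At day 5, however, 9 FAPs carried all 64 UMIs of Chad and 3 of them 50 of every 100. Day 7 has a separate label of 88 tenocytes, tendon cells, and day 5 has none. With these tenocytes added to the day 7 FAPs, the median of the tendon list was 0.53 and that of the proteoglycan list 0.46. The sign of both medians thus changed with the labels counted at day 7. At least 2 tenocyte markers were found in 5.80% of FAPs at day 5 and 13.6% at day 7. At least 3 were found in 1.45% and 1.91%. Depth bears on these shares, since deeper cells show more markers. FAPs had a median of 2785 UMIs per cell at day 5 and 7007 at day 7, while the summed tenocyte markers stood at 1233 and 1063 cpm. What sets these differences was not tested.

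Proteases and their inhibitors had 4 of 24 members higher and 3 lower, with a median of 0.16 (0.13 length-centred, with 2 higher and 3 lower). Higher were Serpinf1 (1221 to 2728 cpm, 1.16), Serpine2 (228 to 536 cpm, 1.24), the collagen-degrading cathepsin gene Ctsk (452 to 932 cpm, 1.04) and Mmp9, at 7 and 72 UMIs, whose interval of -0.06 to 2.42 spans 0. Lower were Plau, the metalloproteinase inhibitor gene Timp3 (310 to 72.9 cpm, -2.09) and Adamts1 (452 to 156 cpm, -1.54). Adamts1 was also lower in endothelial cells, at -2.24.

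Genes of resting and adventitial stroma were lower in FAPs at day 7 more often than all genes, and the labels of day 7 differed in them. Of 26 measured, 1 was higher and 10 lower past 2-fold (38.5%), with a median of -0.48. The median was -0.46 in endothelial cells (16 genes), -0.76 in macrophages (21 genes) and 0.045 in muscle stem cells and progenitors (15 genes). Length-centred, the FAP median was -0.38, with 8 lower. The median ratio to day 5 was -0.77 for the cells labelled FAPs and 0.47 for those labelled activated. Gsn (gelsolin, an actin-severing protein) stood at 44811 cpm at day 0, 2307 at day 2, 10608 at day 5 and 5082 at day 7 (-1.06), with 3547 and 14026 cpm under the labels. Ackr3, a scavenger receptor for the chemokine Cxcl12, went from 267 to 93.0 cpm (-1.52) and Sema3c, a guidance protein, from 322 to 103 cpm (-1.65). Pi16, a marker of adventitial fibroblasts, stood at 2707, 126, 1253 and 990 cpm at days 0, 2, 5 and 7. At day 7 Pi16 was at 274 cpm in cells labelled FAPs and 5167 in cells labelled activated. The one higher member was the chemokine gene Cxcl14 (730 to 1698 cpm, 1.22).

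The smaller label of day 7 held both resting genes and genes of inflammation. Against day 5 its median was 0.91 for the chemokine list, 0.58 for complement and 0.69 for class I antigen presentation. The 10 genes most enriched in the 352 activated-labelled cells over the other 1537 included the acute-phase genes Lcn2 (275 against 0.650 cpm), Hp (523 against 17.8), Saa1 (250 against 8.04), Serpina3n (827 against 41.4) and Lrg1 (193 against 1.22). The 10 most depleted were Ptn, Fibin, Mest, Tnc, Dlk1, Ly6h, Col8a1, Igf2, Mdk and H19. Several of these, such as the matrix glycoprotein gene Tnc (3.79 against 144 cpm) and the imprinted genes Igf2 (7.57 against 167) and H19 (64.8 against 958), are linked to growth and remodelling. The labels came from clustering of these cells, so this contrast is a description. It bears on the days since day 5 has 1 FAP label: the acute-phase genes were higher than at day 5 over all day 7 FAPs (Lcn2 4.31, Hp 2.39, Lrg1 2.61, Saa1 1.70, Serpina3n 1.21), but in cells labelled FAPs alone Lcn2, Lrg1, Saa1, Serpina3n and Hp had ratios of -1.66, -1.98, -0.73, -0.71 and 0.02. The first of these rests on 6 UMIs of Lcn2 at day 5 and 8 in those cells, and the next on 14 and 15 of Lrg1. Activated-labelled cells had a median of 5056 UMIs and the others 7669.

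**Figure D5:**
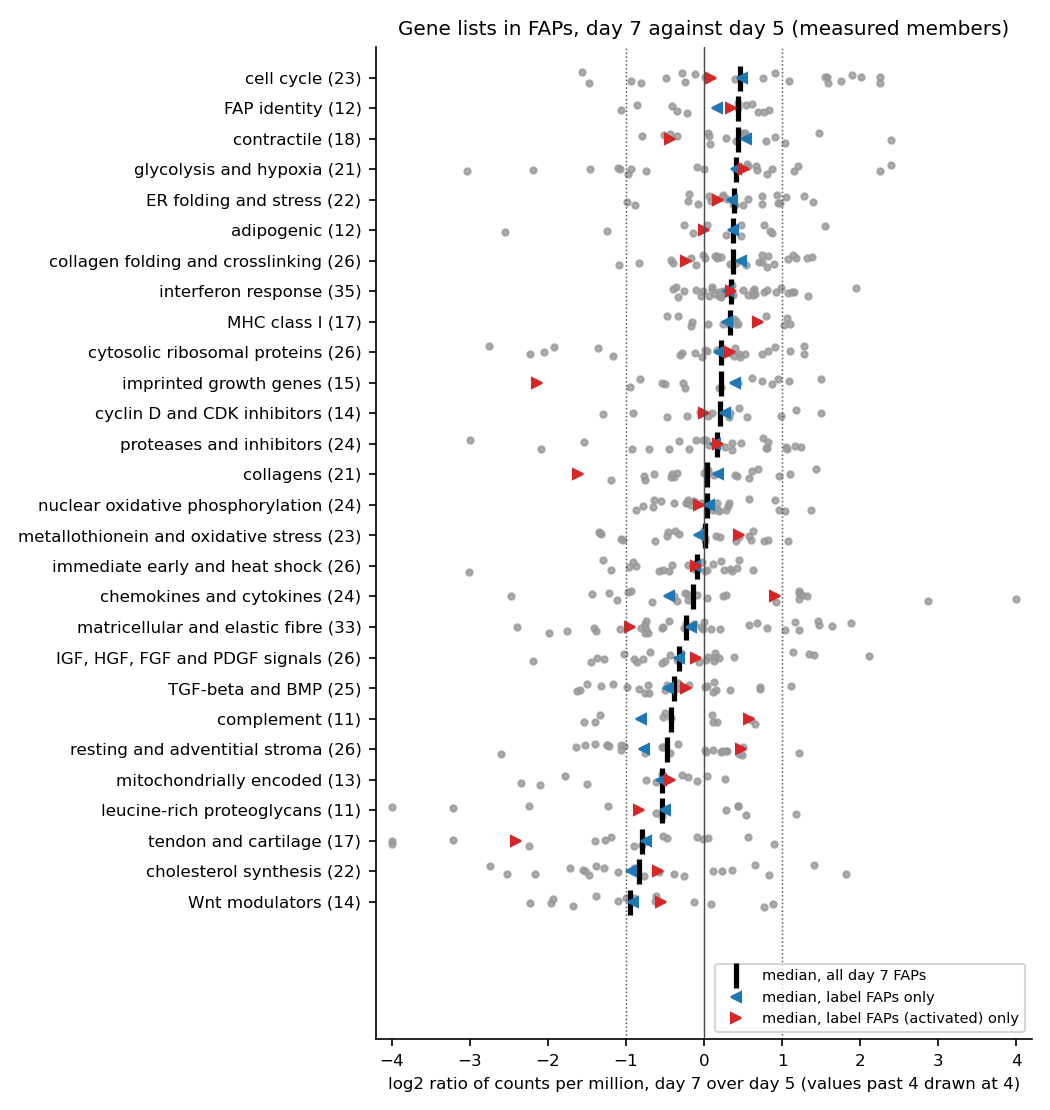
Each grey point is a measured member of a gene list (number in brackets), placed on the x axis by its log2 ratio of cpm, day 7 over day 5, with dotted lines at 2-fold. Black bars are list medians, and triangles the medians when only cells of 1 day 7 label are used: collagens lie at 0.18 (blue, FAPs) and -1.62 (red, FAPs (activated)), resting genes at -0.77 and 0.47.

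Imprinted growth genes, which are active in fetal tissue and in regenerating stroma, had 2 of 15 members higher and 0 lower, with a median of 0.22 over all day 7 FAPs and -2.14 under the activated label. Length-centred it was 0.72, and it was -0.00029 in endothelial cells (9 genes) and -0.43 in macrophages (12 genes). The non-coding RNA gene Meg3 stood at 564, 1090, 1238 and 2634 cpm at days 0, 2, 5 and 7 (1.09, 1.04 to 1.14), with a length-centred ratio of 1.62. Mest was higher by under 2-fold, at 342 and 661 cpm (0.95). Igf2 stood at 209 and 144 cpm (-0.54).

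Interferon-response genes were on balance higher, in FAPs and in other cells alike. Interferons signal through a complex that binds the interferon-stimulated response element, searched here as 2 copies of GAAA set 2 bases apart, on either strand. Of 35 measured members 5 were higher past 2-fold (14.3%) and 0 lower, with a median of 0.34, and the medians were 0.48 in endothelial cells and 0.38 in macrophages. Length-centred the median was again 0.34, but 1 of 35 was higher past 2-fold (Irf7), below the share of all genes. Irf7, a transcription factor that amplifies the response, stood at 20.6, 20.2, 42.9 and 164 cpm at days 0, 2, 5 and 7 (1.94, 1.68 to 2.21). The ratio of Irf7 was 1.51 in macrophages, and 28.0% of thinned day 7 macrophages had a UMI against 13.0% of FAPs. Ifit3, an interferon-induced antiviral gene, went from 68.2 to 171 cpm (1.33), with 2.34 in macrophages. Ifit3 has close paralogues that can share its reads. The others past 2-fold were Rtp4 (63.4 to 139 cpm), Lgals3bp (132 to 292 cpm) and Gbp3 (26.7 to 56.2 cpm). Ifitm3, the most abundant member, was at 1776 and 3108 cpm (0.81).

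Markers of macrophages in FAPs moved with this list. Their 12 genes summed to 835 cpm at day 5 and 3663 at day 7, with 10 higher and none at 0, which is 1.94% and 3.18% of their level in macrophage-labelled cells. Without FAPs that held a UMI of 5 immune genes (468 of 828 cells left at day 5 and 700 of 1889 at day 7) the interferon median was 0.49. Irf7 and Ifit3 then had ratios of 1.87 and 1.56. The part left differs between the days, and a cell without these UMIs can still hold macrophage RNA. What macrophage RNA adds to the interferon ratios was not tested. The secreted phosphoprotein gene Spp1 (22.97 to 168 cpm, 2.87) is found in 35.4% of thinned day 7 macrophages and 6.41% of FAPs, and whether macrophage RNA sets its FAP value was not tested.

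Promoters of the list members past 2-fold are shown where they hold the element. In the RefSeq promoter table (GRCm38.p6, 300 bases around each start, of which the 250 upstream bases are printed), 27 of the 35 members had an entry and 16 of these held a match. Among all measured genes with an entry, 3.81% did. Capitals mark the element. The Ifit3 promoter is at chr19:34583279-34583528 and that of Gbp3 at chr3:142559794-142560043, both on the plus strand.
Ifit3: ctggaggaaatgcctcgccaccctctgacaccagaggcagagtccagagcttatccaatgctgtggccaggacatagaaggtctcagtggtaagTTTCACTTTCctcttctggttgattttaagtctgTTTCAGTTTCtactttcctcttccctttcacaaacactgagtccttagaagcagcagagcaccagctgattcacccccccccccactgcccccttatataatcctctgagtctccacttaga
Gbp3: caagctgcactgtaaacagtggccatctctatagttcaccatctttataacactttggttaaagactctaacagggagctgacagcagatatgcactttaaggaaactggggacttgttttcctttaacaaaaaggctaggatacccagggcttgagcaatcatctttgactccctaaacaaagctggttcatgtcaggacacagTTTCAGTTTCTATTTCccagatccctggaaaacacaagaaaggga
Ifit3 holds 2 matches and Gbp3 2 overlapping ones, while Isg15 (307 to 395 cpm, 0.36) and Rsad2 (59.7 to 45.3 cpm, -0.40) also hold matches and stayed within 2-fold. A match is a letter pattern, not a measured binding site.

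Class I antigen presentation had 3 of 17 members higher and 0 lower, with a median of 0.34 (endothelial 0.51, macrophage -0.04). Length-centred, 1 was higher. H2-D1, a class I heavy chain, went from 859 to 1802 cpm (1.07), H2-T22 from 64.8 to 139 (1.10) and the immunoproteasome gene Psmb8 from 74.1 to 151 (1.03). H2 genes have near-identical copies, so their single values are uncertain. B2m, the shared light chain, stood at 2075 and 3602 cpm (0.80).

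Chemokines and cytokines had 7 of 24 members higher (29.2%) and 4 lower (16.7%), with a median of -0.15 (endothelial -0.18, macrophage -0.35). Length-centred, 4 were higher and 6 lower. The median was -0.45 in cells labelled FAPs and 0.91 in those labelled activated, 0.14 in thinned cells and 0.23 without cells holding an immune UMI, so its sign rests on the setting. Besides Cxcl13, Cxcl14 and Spp1, the higher ones were Saa3, Cxcl16, Il34 and Tnfsf13b. Saa3, an acute-phase gene, stood at 14.2 cpm in cells labelled FAPs and 221 in those labelled activated. Il34, a ligand of the macrophage growth factor receptor, stood at 13.7 cpm at day 5 and 32.9 at day 7. Lower were the cytokine genes Lif (9.60 to 1.73 cpm, -2.47), Il11, Tslp and Cxcl5. For Cxcl5 the ratio of -1.43 turned to 0.19 in thinned cells and to 0.19 without cells holding an immune UMI. Il6 was lower by under 2-fold, at 206 and 108 cpm. The neutrophil attractant Cxcl1 (802 and 752 cpm) and the eosinophil attractant Ccl11 (614 and 628 cpm) differed by under 0.1 log2.

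Complement genes had 0 of 11 members higher and 3 lower (27.3%), with a median of -0.42 (endothelial 0.20, macrophage -0.69). Length-centred it was -0.25, again with 3 lower, and without cells holding an immune UMI -0.19. By label it was -0.81 and 0.58. Cfb, factor B of the alternative pathway, went from 140 to 48.2 cpm (-1.54) and Cd55, which protects cells from complement, from 170 to 64.6 cpm (-1.40). The third was Cd59a (-1.33). C3, the central component, stood at 675 and 469 cpm (-0.53), with 208 cpm in cells labelled FAPs and 1995 in those labelled activated.

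Growth factor and receptor genes gave both directions. Of 26 genes of the IGF, HGF, FGF and PDGF list 4 were higher (Ptn, Mdk, Igfbp7 and Angptl4) and 5 lower, with a median of -0.32 (endothelial -0.13, macrophage -0.22). Length-centred, 2 were higher and 3 lower. Igfbp7, a secreted IGF-binding protein, went from 1739 to 4427 cpm (1.35), with 1.17 in endothelial cells. Lower were the vessel growth factor Vegfa (67.9 to 14.8 cpm, -2.19), Fgf2 (20.2 to 7.42 cpm, -1.45), Igf1r (78.9 to 30.4 cpm, -1.37), Pdgfc and Igfbp5. In the TGF-beta and BMP list 1 of 25 was higher and 5 lower, with a median of -0.38 (endothelial -0.13, macrophage -0.29, length-centred -0.39). The ligand gene Tgfb1 went from 23.3 to 50.7 cpm (1.12) and the receptor gene Tgfbr2 from 418 to 168 (-1.31). Bmp4 went from 44.2 to 14.8 cpm (-1.58). The Tgfbr2 ratio was -0.97 in macrophages.

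Wnt ligands, receptors and secreted modulators were lower past 2-fold at a share above that of all genes. Of 14 measured 0 were higher and 6 lower (42.9%), with a median of -0.94, and -0.95 length-centred. Sfrp4, a secreted Wnt antagonist and the most abundant of the 6, stood at 352, 110, 453 and 142 cpm at days 0, 2, 5 and 7 (-1.68, -1.78 to -1.58). After thinning 22.2% of day 5 and 9.05% of day 7 FAPs had a UMI of Sfrp4. The ligand genes Wnt11 (26.7 to 5.68 cpm, -2.23) and Wnt2 (27.1 to 6.93 cpm, -1.97) and the pathway target Axin2 (17 and 22 UMIs, -1.93) were lower too. Sfrp1, a relative of Sfrp4, stood at 127 and 116 cpm. The macrophage median was -2.80 over 5 of these genes, and 1 member had an endothelial ratio.

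Cholesterol pathway genes were lower past 2-fold at a higher share than all genes. Cells switch these genes on together through SREBP2 when sterols run low. Of 22 measured 2 were higher and 10 lower (45.5%), with a median of -0.83 and a summed level of 460 cpm at day 5 and 287 at day 7. The median was 0.24 in endothelial cells (14 genes) and -0.57 in macrophages (22 genes), and length-centred it was -0.91, again with 10 lower. Idi1, an isomerase of the pathway, stood at 79.6, 6.19, 21.6 and 3.74 cpm at days 0, 2, 5 and 7 (-2.53, -3.08 to -1.98). Srebf2, which encodes SREBP2 itself (-1.55), Cyp51 (-1.53), Sqle (-1.48), Insig1 (-1.29) and Hmgcs1 (-1.11) were lower as well. Insig1 stood at 132, 15.6, 62.4 and 25.6 cpm at the 4 days and Hmgcs1 at 117, 24.2, 49.4 and 22.9, so for Idi1, Insig1 and Hmgcs1 day 5 lay between days 0 and 2. Mvd (8 and 140 UMIs, 1.82) and Dhcr7 (8 and 105 UMIs, 1.41) were the higher members. These genes are scarce, and after thinning 2.78% of day 5 and 0.529% of day 7 FAPs had a UMI of Idi1, against 1.62% and 0.935% of macrophages.

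The sterol regulatory element, searched as TCACNCCAC on both strands, was found in the promoter window of 1 of the 15 list members with an entry, Hmgcs1, and in 1.35% of measured genes with an entry. Its upstream 250 bases, at chr13:119690101-119690350 on the plus strand, are shown because Hmgcs1, which encodes an early enzyme of the pathway, carried the match. Capitals mark it.
Hmgcs1: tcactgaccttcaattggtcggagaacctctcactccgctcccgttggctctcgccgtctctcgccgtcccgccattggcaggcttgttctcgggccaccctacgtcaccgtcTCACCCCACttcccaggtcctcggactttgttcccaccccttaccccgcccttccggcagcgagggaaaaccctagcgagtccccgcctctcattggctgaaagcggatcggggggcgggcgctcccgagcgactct
No match in the other windows says only that these letters do not occur there.

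Contractile genes had 3 of 18 members higher and 0 lower, with a median of 0.43 (0.19 length-centred). Acta2, smooth muscle actin, stood at 7.96, 96.5, 10.3 and 54.0 cpm at days 0, 2, 5 and 7 (2.39, 1.87 to 2.97). However, 5 cells labelled FAPs held 50 of every 100 of its 770 UMIs, and 1 cell held 229. Smooth muscle and pericyte markers in FAPs summed to 121 and 303 cpm, with 6 of 9 higher and Myh11 at 0 at day 5. Their part in the Acta2 value was not tested. Tpm2, a tropomyosin, went from 42.5 to 118 cpm (1.47). Actb was lower by under 2-fold, at 3698 and 2137 cpm (-0.79).

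Cell cycle genes had 9 of 23 members higher (39.1%) and 2 lower, but on few molecules. Top2a, which untangles DNA at mitosis, had 3 UMIs at day 5 and 50 at day 7 (1.75, 0.12 to 4.08), and Birc5 3 and 71 (2.26, 0.65 to 4.57). Tyms, of DNA precursor synthesis, had 10 and 236 (2.25, 1.35 to 3.33). The list summed to 577 and 602 cpm, so abundant members such as H2afz (344 and 354 cpm) did not differ by much, and Pcna was lower (53.5 to 18.2 cpm, -1.56). D-type cyclins and inhibitors of cyclin-dependent kinases had 2 of 14 higher, Cdkn1c and Cdkn2c, and 1 lower, Cdkn1b (-1.30), with a median of 0.21. The list median of 0.47 was 1.54 in endothelial cells, 0.06 in thinned FAPs and 0.04 without cells holding an immune UMI.

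Most stress and energy genes stayed within 2-fold, but some lists passed it at shares above those of all genes (9.69% higher, 11.9% lower). Of 26 immediate early and heat shock genes 0 were higher and 3 lower (11.5%). The 3 were Hspa1b (419 to 51.9 cpm, -3.01), Egr1 (2510 to 1103 cpm, -1.19) and Nr4a1 (361 to 147 cpm, -1.30). Endothelial ratios were -4.18, -1.83 and -1.13 for these genes. Fos (2727 and 2798 cpm) and Junb (1881 and 1748 cpm) differed little. Such genes also respond to tissue digestion, and what that contributed was not tested. Mt1 and Mt2, at -1.35 and -1.32, had endothelial ratios of -0.72 and -0.81 and macrophage ratios of -1.78 and -2.19. Under the activated label Mt2 stood at 4583 cpm, above the 3276 of day 5. In glycolysis 4 of 21 genes were higher, among them Aldoa (155 to 357 cpm), and 5 lower, led by Hk2. Folding and stress genes of the endoplasmic reticulum had 3 of 22 higher and 0 lower, with medians of 0.38 in FAPs, 0.65 in endothelial cells and 0.39 in macrophages. With length-centring 0 of these were higher and 0 lower, and the FAP median was 0.11. Of 24 nuclear genes of oxidative phosphorylation 2 were higher and 0 lower. Metallothioneins and oxidative stress genes together had 1 of 23 higher and 5 lower (21.7%), with a median of 0.01. Of 26 cytosolic ribosomal protein genes 3 were higher (11.5%) and 6 lower (23.1%), with a median of 0.22. Of 13 mitochondrially encoded genes 0 were higher and 4 lower (30.8%), with a median of -0.53 (endothelial -0.81, macrophage -0.77). Length-centred, 6 of the ribosomal and 8 of the mitochondrial genes were lower. Fat-cell genes had 1 of 12 higher and 2 lower: Pparg with 4 and 58 UMIs, Plin1 with 13 and 11, and Zfp423 at 25.7 and 10.9 cpm.

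Markers of further cell types in FAPs were compared in the same way. Dendritic cell markers summed to 328 cpm at day 5 and 1335 at day 7 and red cell markers to 25.4 and 288. Endothelial markers stood at 225 and 183 cpm, T and NK cell markers at 176 and 122, mature muscle markers at 876 and 683 and tenocyte markers at 1233 and 1063. Glial markers stood at 64.8 and 25.3 cpm, neutrophil markers at 22.97 and 24.47, muscle stem cell markers at 81.3 and 110.5 and B cell markers at 2.40 and 2.15. Tmem8c, Myod1 and Myog, which mark muscle progenitors, had 0 UMIs in day 5 FAPs. Their part in other ratios was not tested.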

How the data were processed

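Cells were taken from 1 library matrix per day (10x 3' v2 chemistry per the labels' protocols). Per the submitters' processing notes the tools were R 3.6.2, Cell Ranger 2 and Seurat 2.3.4, with the build mm10. Raw UMI counts were deposited as 1 matrix of genes by cells for each day, and each listed gene occurs in at least 3 barcodes. The deposited normalized tables hold natural log values, the log of 1 plus a scaled share of the cell's UMIs, and this formula gave back the day 5 and day 7 tables to within 6.22e-15. The deposited metadata give a mitochondrial fraction and the cell labels used here, and 8 of their columns were not used. Barcodes without a label were left out (13 at day 5, 9 at day 7).

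UMIs were summed over the FAPs of a day and divided by the total of those FAPs (all labelled cells together held 5986701 UMIs at day 5 and 40427212 at day 7). Ratios carry exact binomial intervals at 95% (scipy 1.17.1), with a floor of 3 counts for a count of 0. Genes with at least 20 UMIs over both days count as measured. Named genes were the 20 largest and 20 smallest ratios among genes that, on the day of their higher level, reached 100 cpm, 50 UMIs and 0.5 times the level of any other type with 100 cells or more. From each list the 4 largest ratios and 3 highest levels were named, plus 10 genes each way between the day 7 labels. Other members past 2-fold, and a few set beside them, were named after their values were seen. The members and the 29 gene lists were chosen with earlier results of these data known, and the length-centred ratio, the ratio to other cell types and the added tenocytes after seeing the data. Transcript lengths came from GENCODE M21, and 97.2% of measured genes had one. Doublets were called with scrublet in scanpy 1.11.5 (6 of 2164 cells at day 5, 109 of 5680 at day 7) and kept in the reported values. The ratio and its interval were run on simulated Poisson counts, the model that the interval assumes. Those counts lack the clumping of UMIs in single cells seen here, so the run checks the calculation only.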

Additional observations from a re-analysis of the deposited data

Results flagged for a closer look

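Hbb-bs, a beta-globin gene of red cells, had a ratio of 3.63 in FAPs and -3.24 in endothelial cells. Anxa3, an annexin, stood at -1.03 in FAPs and 1.11 in macrophages. By day 7 label the Anxa3 ratio was -2.26 in cells labelled FAPs and 1.10 in those labelled activated. Over all FAPs it was -0.92 without cells holding an immune UMI and -0.96 with each cell weighing the same, both under 2-fold. Plac8 stood at 1.10 in FAPs and -1.31 in macrophages. For each of these genes, taken over all FAPs as reported, the cell types differed in opposite directions past 2-fold between the same days. There was 1 library a day, and the difference was not tested.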

How the results depend on the processing

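Counts of genes past 2-fold lay between 943 and 1537 (higher) and 1112 and 1668 (lower) under the alternatives, apart from 2735 higher and 3076 lower at 1.5-fold and 2420 lower with no filter on low counts. The collagen median of 0.04 became 0.18 with the cells labelled FAPs alone, 0.22 in thinned cells, 0.24 with each cell weighing the same, 0.16 with TMM scaling (a log2 factor of -0.12), 0.16 without cells holding an immune UMI and 0.51 length-centred. The matricellular median turned from -0.23 to 0.059 in thinned cells. The proteoglycan median was -0.079 in thinned cells, and the FAP identity median 0.16 with the cells labelled FAPs alone and 0.11 on the normalized values. The interferon median was 0.70 with each cell weighing the same. The resting median was -0.77 with the cells labelled FAPs alone, -0.61 with each cell weighing the same, -0.55 without mitochondrial and ribosomal genes in the totals and -0.54 with tenocytes added. The Wnt median was -0.64 in thinned cells. On the authors' normalized values, as differences of mean natural log, medians were 0.040 (matricellular), 0.10 (interferon), -0.058 (resting), -0.020 (Wnt) and -0.018 (cholesterol), and they turned positive for proteoglycans (0.0045), complement (0.0018), TGF-beta and BMP (0.013), IGF, HGF, FGF and PDGF (0.016) and immediate early genes (0.033). That scale differs from a log2 ratio of sums. Immediate early genes gave 0.0215 with TMM, ribosomal genes -0.16 length-centred, and tenocytes turned proteoglycans to 0.46 and tendon genes to 0.53. Thinned to 500 UMIs, the difference in share was 18.0 percentage points for Cthrc1, -28.0 for Myoc and 6.39 for Irf7. FAP shares were 80.4% and 64.1% of non-immune cells. Length-centring and added tenocytes were chosen after seeing the data. The causes were not tested. The 2916545 UMIs of day 5 limit scarce genes most: 100 measured genes had 0 counts there. No paired analysis was possible because each day has 1 library.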
